A study of Asparagus officinalis with 12 samples.

Results

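The segment 17 to 20 cm above the soil was compared between stems of asparagus (Asparagus officinalis, cultivar 'Fengdao 2') that had grown to 40 cm (H-40) and stems that had reached 25 cm (H-25). The comparison rests on 6 of the 12 RNA-seq libraries of the series, 3 per height, and on 20352 of 35166 genes, those with an FPKM (a fragment count divided by the length of the gene and scaled for the library) of at least 1 in at least 3 of the 12 libraries. All stems came from 3-year-old plants of 1 cultivar grown under rain shelters, were chosen for a similar diameter, and carried no treatment or transgene. The other 6 libraries, of stems 10 cm (H-10, segment 3 to 6 cm) and 60 cm tall (H-60, segment 17 to 20 cm), entered the shared estimate of the spread and are given only as levels. The sources do not say how many stems went into a library, so p-values here speak of the spread among libraries, which may be technical. By subtraction, the segment lay 20 to 23 cm below the tip at H-40 and 5 to 8 cm below it at H-25. The age of the stem and the distance of the segment from the tip therefore cannot be told apart.

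An asparagus spear is a young shoot. In a growing shoot, cells are produced near the tip, then lengthen as their primary walls yield to turgor and their vacuoles fill with water, and finally some of them, above all xylem vessels and fibres, lay down secondary walls of cellulose, xylan and lignin. Expansins loosen the wall, xyloglucan endotransglucosylase/hydrolases (XTHs) cut and rejoin its xyloglucan, and laccases and peroxidases oxidise monolignols into lignin. A bulk segment holds many cell types, and fewer cells of a type cannot be told apart from less RNA per cell.

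The 6 libraries held 13470633 to 15365004 fragments at H-40 and 15031412 to 15594852 at H-25, and 1 fragment on a gene of 1 kb equalled 0.0601 to 0.0795 FPKM in them. One library stood apart from its group over all genes. H-25 replicate 2 had an R2 of log2(FPKM + 1) of 0.921 and 0.923 with its own group, against 0.983 between H-25 replicates 1 and 3, and of 0.87 to 0.903 with the H-40 libraries, against 0.776 to 0.824 for H-25 replicates 1 and 3. In the genes that differed between the stages, it usually lay on the H-40 side of the other H-25 libraries, at a median of 0.31 of the way to H-40 in genes higher at H-40 and 0.35 in genes lower at H-40. Where FPKM are given below for the compared stages, they are given for every library, so that this library can be read separately. Some genes are given by their fold change alone. The part of H-25 replicate 2 in the results was not tested beyond leaving it out.

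A differentially expressed gene (DEG) had a limma p, adjusted over all tested genes by Benjamini-Hochberg, of at most 0.05 and a difference of at least 1. All log2 fold changes (log2FC) below are differences of log2(FPKM + 1), H-40 minus H-25, which understate the change of genes with low FPKM, and all adjusted p come from that limma fit. At H-40, 2421 genes were higher (11.9% of those tested) and 2476 lower (12.2%), so that 24.1% of the tested genes were called. The total was 6167 without H-25 replicate 2 and 4004 if H-25 replicate 1 was dropped. The median over all tested genes was 0.01. Large rises outnumbered large falls, with 116 DEGs at least 16-fold higher and 37 at least 16-fold lower. The libraries of both stages did not overlap in 47.7% of all tested genes. Those of H-40 lay wholly above those of H-25 in 23.9% and wholly below in 23.8%, and among the DEGs this held for 2288 of the higher and 2353 of the lower. H-25 replicate 2 was the highest H-25 library in 1826 of the higher DEGs and the lowest in 2004 of the lower ones. The higher DEGs took 23.3, 27.3 and 23.8% of all FPKM in the H-40 libraries and 4.2, 8.6 and 4.3% in the H-25 libraries, whereas the lower DEGs took 8.7, 7.5 and 9.4% at H-40 and 33.8, 22.1 and 33.4% at H-25.

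**Figure D1:**
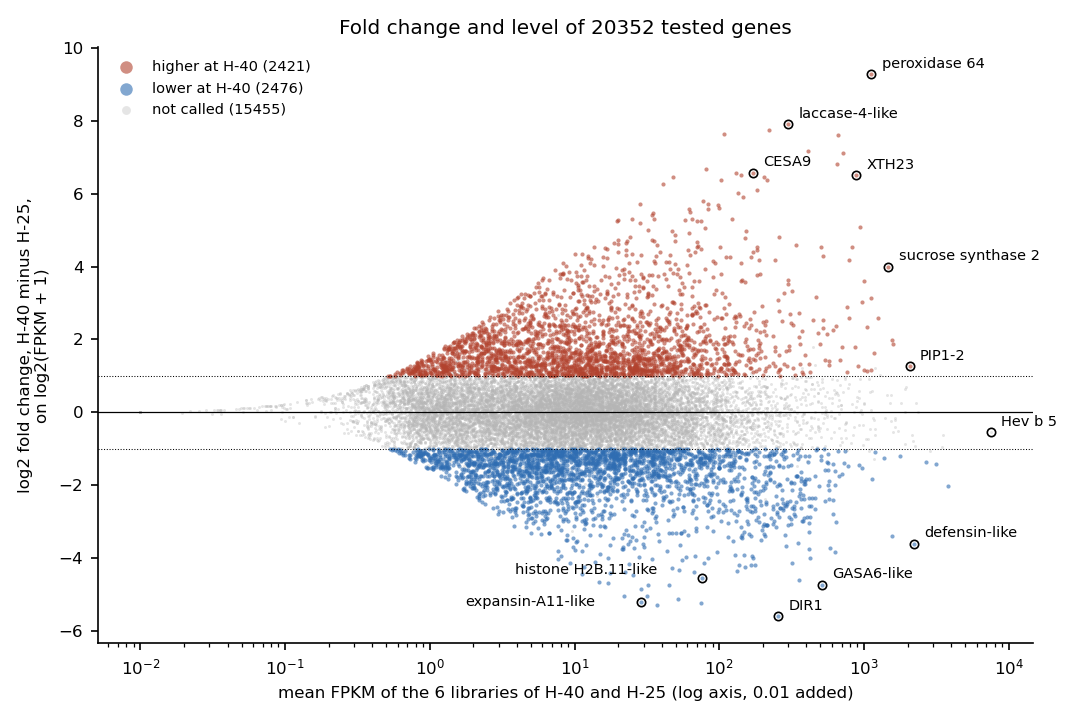
Log2 fold change on log2(FPKM + 1), H-40 minus H-25 (vertical axis), against the mean FPKM of the 6 libraries (horizontal axis, log scale) for each of the 20352 tested genes. Red points are the 2421 genes higher at H-40, blue points the 2476 genes lower at H-40, grey points were not called, dotted lines mark a log2 fold change of 1 and -1, and labelled circles are genes described in the text, with peroxidase 64 at the top and the DIR1 gene at the bottom.

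Among the widest rises at H-40 were those of a peroxidase, laccases, glycosidases, XTHs, cellulose synthases and an isoflavone reductase-like gene. The widest was peroxidase 64 (LOC109850189, chr7:95609897-95613386, minus strand), a class III peroxidase of the kind that oxidises monolignols. It had 1921, 1565 and 3226 FPKM at H-40 and 0.865, 9.31 and 1.11 FPKM at H-25 (log2FC 9.28 ± 0.87 (SE), adjusted p = 1.56e-05). No H-25 library reached 10 FPKM. Its levels elsewhere were 139 ± 124 FPKM at H-10 and 1157 ± 122 FPKM at H-60 (SD, n = 3 each), so that the H-25 segment had the lowest mean of the 4 stages. Laccase-4-like (LOC109849561, chr7:939376-942573, minus strand) had 622, 558 and 604 FPKM at H-40 and 0.926, 4.61 and 0.415 FPKM at H-25 (log2FC 7.91 ± 0.42 (SE), adjusted p = 3.48e-07). Laccase-17-like (LOC109829847) had 455, 430.0 and 428 FPKM at H-40 and 0.156, 5.5 and 0.149 FPKM at H-25 (log2FC 7.74, adjusted p = 1.76e-06). In Arabidopsis these laccases act in lignin formation, and here H-25 replicate 2 held the highest H-25 value of both.

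The cellulose synthases that in rice build the secondary wall, CESA4, CESA7 and CESA9, moved together. CESA4 (LOC109847015) had 315, 495 and 401 FPKM at H-40 and 2.39, 8.03 and 2.05 FPKM at H-25 (log2FC 6.45, adjusted p = 1.76e-06). CESA7 (LOC109836391) had 321, 482 and 462 FPKM at H-40 and 2.74, 8.95 and 2.31 FPKM at H-25 (log2FC 6.38, adjusted p = 7.45e-07). CESA9 (LOC109844015) had 250.2, 422 and 343 FPKM at H-40 and 1.68, 7.84 and 0.766 FPKM at H-25 (log2FC 6.58, adjusted p = 2.58e-06). None of their H-25 values reached 10 FPKM, and H-25 replicate 2 was the highest of each H-25 group. Outside this comparison CESA4 had 5.98 ± 3.19 FPKM at H-10 and 693 ± 198 FPKM at H-60 (SD, n = 3 each), CESA7 had 5.28 ± 1.04 FPKM at H-10 and 706 ± 212 FPKM at H-60 (SD, n = 3 each) and CESA9 had 3.26 ± 0.576 FPKM at H-10 and 642 ± 180.3 FPKM at H-60 (SD, n = 3 each).

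Other wide rises belonged to enzymes that trim or remodel wall polysaccharides. Beta-D-xylosidase 1-like (LOC109819692), which removes xylose from xylan and arabinoxylan, had 1054, 1673 and 1228 FPKM at H-40 and 2.64, 26.97 and 1.94 FPKM at H-25 (log2FC 7.6, adjusted p = 9.75e-06). A beta-galactosidase (LOC109828085) had 1234, 1597 and 1430 FPKM at H-40 and 2.18, 34.8 and 8.49 FPKM at H-25 (log2FC 7.11, adjusted p = 1.17e-05). XTH24-like (LOC109840447) had 161, 245 and 240.2 FPKM at H-40 and 0, 0.203 and 0 FPKM at H-25 (log2FC 7.64, adjusted p = 1.99e-06). It was close to absent in every H-25 library. XTH23 (LOC109841353) had 1566, 2442 and 1193 FPKM at H-40 and 3.7, 58.3 and 20.8 FPKM at H-25 (log2FC 6.51, adjusted p = 2.66e-05). Inositol oxygenase (LOC109826551), which opens a route from inositol to UDP-glucuronate, a precursor of xylan and pectin, had 242, 371 and 234 FPKM at H-40 and 1.6, 5.32 and 0.703 FPKM at H-25 (log2FC 6.51, adjusted p = 1.96e-06).

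The widest falls included genes of wall loosening and of small peptides and proteins induced by auxin or gibberellin. The gene described as putative lipid-transfer protein DIR1 (LOC109826747, chr10:54438440-54438769, plus strand), whose Arabidopsis counterpart carries a signal of systemic resistance, had 7.41, 0.853 and 23.9 FPKM at H-40 and 814, 90.1 and 586 FPKM at H-25 (log2FC -5.59 ± 1.08 (SE), adjusted p = 0.00173). H-25 replicate 2 was far below the other H-25 libraries, yet above every H-40 library. A polygalacturonase, an enzyme that cuts pectin (At1g48100, LOC109831923), had 2.29, 0.705 and 5.62 FPKM at H-40 and 185, 49.4 and 206 FPKM at H-25 (log2FC -5.22, adjusted p = 4.20e-05). Expansin-A11-like (LOC109849020) had 0.679, 0 and 1.26 FPKM at H-40 and 63.4, 46.05 and 60.1 FPKM at H-25 (log2FC -5.19, adjusted p = 4.39e-06), with all 3 H-25 libraries within a narrow range. SAUR50-like (LOC109837067), of a family of small auxin-induced proteins, had 2.34, 0.473 and 3.32 FPKM at H-40 and 132, 52.98 and 121 FPKM at H-25 (log2FC -5.11, adjusted p = 5.86e-06). GASA6-like (LOC109832576), a gibberellin-regulated cysteine-rich peptide, had 29.03, 25.4 and 50.6 FPKM at H-40 and 1347, 527 and 1072 FPKM at H-25 (log2FC -4.73, adjusted p = 3.33e-06). A lipid-binding protein gene described as PCTP-like (LOC109823863) had 0.101, 0.441 and 0.498 FPKM at H-40 and 40.2, 26.6 and 34.8 FPKM at H-25 (log2FC -4.69, adjusted p = 2.29e-07). That the groups of these 6 genes did not overlap was a condition for naming the widest falls.

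Among the most abundant transcripts, some moved and some did not. Sucrose synthase 2 (LOC109845351), which splits sucrose into fructose and UDP-glucose, the substrate of cellulose synthase, had 1884, 3397 and 2954 FPKM at H-40 and 114, 330.1 and 121 FPKM at H-25 (log2FC 4.0, adjusted p = 3.99e-05). S-adenosylmethionine synthase (LOC109848425), which makes the methyl donor used in lignin and pectin synthesis, had 1975, 2916 and 2486 FPKM at H-40 and 528, 1148 and 464 FPKM at H-25 (log2FC 1.89, adjusted p = 0.00114). A gene described as trans-resveratrol di-O-methyltransferase-like (LOC109825252) had 1890, 2133 and 3244 FPKM at H-40 and 473, 1323 and 341 FPKM at H-25 (log2FC 1.98, adjusted p = 0.00438). In these 3 genes H-25 replicate 2 was the highest of the H-25 libraries and still below every H-40 library. The defensin-like protein gene LOC109836683 had 342, 328 and 210.5 FPKM at H-40 and 5389, 1399 and 5638 FPKM at H-25 (log2FC -3.6, adjusted p = 0.000153). Non-specific lipid-transfer protein 1 (LOC109830096), of a family linked to lipid transport to the cuticle, had 1503, 1226 and 1789 FPKM at H-40 and 5822, 7817 and 4845 FPKM at H-25 (log2FC -2.02, adjusted p = 0.00262). Elongation factor 1-alpha (LOC109843047), which brings aminoacyl-tRNA to the ribosome, had 974, 1630 and 2023 FPKM at H-40 and 4040, 3758 and 3607 FPKM at H-25 (log2FC -1.36, adjusted p = 0.00395). The most abundant described transcript at both heights, a gene annotated after the latex allergen Hev b 5 (LOC109840930), had 7506, 7018 and 4106 FPKM at H-40 and 10270, 8083 and 8030 FPKM at H-25 and was not called (log2FC -0.54, adjusted p = 0.325).

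**Figure D2:**
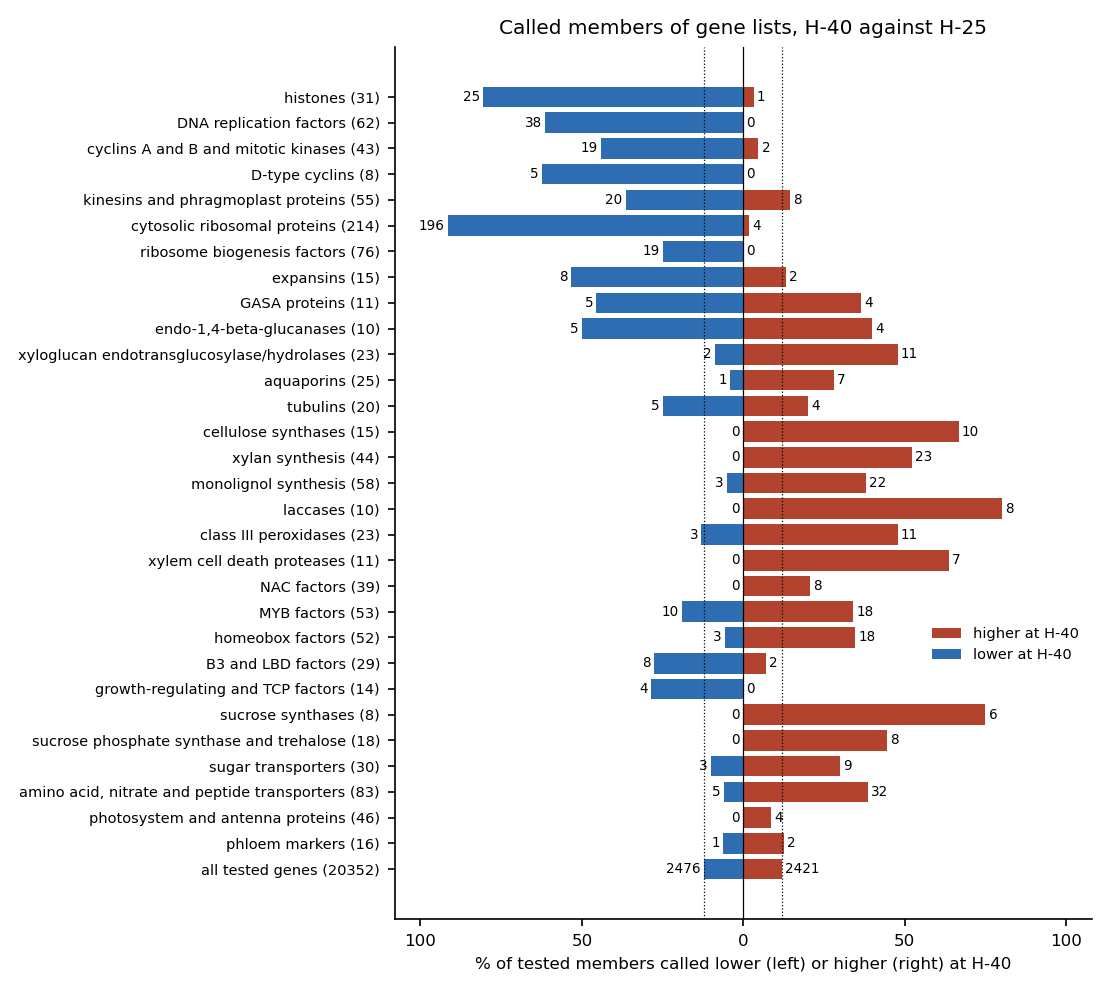
Percentage of the tested members of 30 gene lists that were called higher (red, to the right) or lower (blue, to the left) at H-40 than at H-25, with the number of genes at the bar ends, the number tested in brackets, and dotted lines at the 11.9% and 12.2% of all tested genes. Histones, DNA replication factors and cytosolic ribosomal proteins extend to the left, and cellulose synthases, laccases, xylan synthesis genes and sucrose synthases to the right.

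Among genes that make and divide cells, the lists of histones, DNA replication factors, D-type cyclins and ribosomal proteins had most of their tested members lower at H-40. Those of mitotic genes, kinesins and ribosome assembly had fewer. Of 31 tested histone genes (39 in the table), 25 were lower (80.6%, against 12.2% of all tested genes) and 1 higher, with a median log2FC of -2.8. Their summed FPKM was 1410, 1030 and 1655 in the H-40 libraries and 9426, 4053 and 7715 in the H-25 libraries. Histone H3.2-like (LOC109838317), of the type made during DNA synthesis, had 54.8, 22.6 and 80.2 FPKM at H-40 and 1045, 457 and 881 FPKM at H-25 (log2FC -3.98, adjusted p = 0.000101). H2A.2 (LOC109850329) had 17.3, 2.52 and 18.3 FPKM at H-40 and 341, 94.4 and 326 FPKM at H-25 (log2FC -4.36, adjusted p = 0.000377). H2B.11-like (LOC109829913) had 8.63, 2.73 and 4.8 FPKM at H-40 and 204, 82.7 and 154 FPKM at H-25 (log2FC -4.55, adjusted p = 7.78e-06). H3.3 (LOC109832785), the replacement histone made throughout the cell cycle, had 582, 550.0 and 614 FPKM at H-40 and 1235, 864 and 1059 FPKM at H-25 and was not called (log2FC -0.84, adjusted p = 0.00668). The 1 higher member was H3.3-like LOC109832247, with 10.9, 1.73 and 2.35 FPKM at H-40 and 0, 2.63 and 0 FPKM at H-25 (log2FC 1.64, adjusted p = 0.038), where both groups overlap, and its call was lost with no filter, in the fit on the 6 libraries alone, and without replicate 1 or 3 of H-25 or replicate 1 of H-40. Histone genes are near-identical copies, so reads may have been split between them, which may also hold for SAUR, GASA, tubulin and ribosomal protein genes.

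DNA replication factors fell in 38 of 62 tested members (98 in the table), or 61.3%, and none was higher (1 without H-40 replicate 2), with a median of -1.12. The summed FPKM was 447, 422 and 494 in the H-40 libraries and 1688, 937 and 1642 in the H-25 libraries. The origin recognition complex subunit ORC6-like (LOC109850477) had 4.23, 1.53 and 4.37 FPKM at H-40 and 71.1, 27.8 and 71.9 FPKM at H-25 (log2FC -3.69, adjusted p = 6.39e-05). MCM3 (LOC109849440), part of the helicase that unwinds DNA, had 1.98, 0.555 and 3.65 FPKM at H-40 and 21.3, 14.1 and 28.4 FPKM at H-25 (log2FC -2.95, adjusted p = 0.000122). Replication protein A 70 kDa subunit B (LOC109849301), which coats single strands, had 6.12, 3.36 and 8.42 FPKM at H-40 and 59.9, 33.3 and 70.04 FPKM at H-25 (log2FC -3.0, adjusted p = 3.15e-05). PCNA-like (LOC109821994), the sliding clamp, had 74.1, 101 and 129 FPKM at H-40 and 549, 240.4 and 485 FPKM at H-25 (log2FC -2.0, adjusted p = 0.0042). The 4 genes kept both groups apart, as did 47.7% of all tested genes and 4641 of the 4897 DEGs. In each of them H-25 replicate 2 was the lowest H-25 library, as in 2004 of the 2476 lower DEGs.

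Of 8 tested D-type cyclins, which carry growth signals into the cell cycle, 5 were lower (62.5%, against 12.2% of all tested genes) and none higher, with a median of -1.17. Cyclin-D1-1-like (LOC109822588) had 26.4, 16.5 and 29.9 FPKM at H-40 and 219.6, 91.5 and 207 FPKM at H-25 (log2FC -2.72, adjusted p = 0.00105). Cyclin-D2-1 (LOC109823629) and cyclin-D4-1-like (LOC109832825) fell by 1.76 and 1.14 on the log2 scale, and putative cyclin-D7-1 (LOC109849428) had -1.21 and was not called without H-40 replicate 3. Cyclin-D3-2-like (LOC109841115) had -1.23 and lost its call without replicate 1 or 3 of H-25 or replicate 1 or 2 of H-40. Of 43 tested A- and B-type cyclins and mitotic kinases, 19 were lower and 2 higher (44.2% and 4.65%), with a median of -0.86. The 2 higher were CDC20.2-like (LOC109830716, 1.38) and cyclin-A1-3-like (LOC109848097, 1.26). The B1-type cyclin-dependent kinase CDKB1-1 (LOC109851285), which acts around mitosis, had 0.0512, 0 and 0.253 FPKM at H-40 and 13.2, 1.93 and 13.1 FPKM at H-25 (log2FC -2.93, adjusted p = 0.000869). Cyclin-A3-1-like (LOC109822219) had 0.692, 0.0945 and 0.587 FPKM at H-40 and 21.4, 6.94 and 22.7 FPKM at H-25 (log2FC -3.5, adjusted p = 3.98e-05). Most members of this list were at low FPKM, and with a mean of at least 5 FPKM required, 2 of its members were called lower and none higher.

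The kinesins and phragmoplast proteins were split, with 20 lower and 8 higher of 55 tested (36.4% and 14.5%). With a mean of at least 5 FPKM required, 8 were lower and 8 higher. Their summed FPKM was 773, 838 and 815 in the H-40 libraries and 687, 685 and 749 in the H-25 libraries. The kinesin KIN-14N (LOC109848679) had 1.27, 0.569 and 1.57 FPKM at H-40 and 22.5, 9.14 and 24.2 FPKM at H-25 (log2FC -3.12, adjusted p = 7.12e-05). The microtubule bundling protein MAP65-1-like (LOC109840123), which in Arabidopsis acts in the phragmoplast, had 43.4, 35.6 and 44.1 FPKM at H-40 and 161, 100.2 and 154 FPKM at H-25 (log2FC -1.71, adjusted p = 0.000158). By contrast, MAP65-6-like (LOC109819854) had 151, 143 and 150.1 FPKM at H-40 and 4.33, 22.9 and 6.2 FPKM at H-25 (log2FC 3.94, adjusted p = 4.70e-05). A TPX2-like gene (LOC109841803), of a family of microtubule-associated proteins, had 90.8, 112 and 43.5 FPKM at H-40 and was listed at 0 in all 3 H-25 libraries (adjusted p = 2.38e-07). The cytoskeleton genes proper were likewise divided. Among 20 tubulins, 4 were higher and 5 lower, led by the tubulin alpha chain LOC109833162, with 1832, 1661 and 1677 FPKM at H-40 and 198, 287 and 159 FPKM at H-25 (log2FC 3.04, adjusted p = 4.80e-06), and by tubulin beta-1 chain-like LOC109824970, with 4.15, 7.68 and 13.9 FPKM at H-40 and 54.1, 66.2 and 46.05 FPKM at H-25 (log2FC -2.68, adjusted p = 7.65e-05). The actin-like gene LOC109829917 had 131, 157 and 172 FPKM at H-40 and 1060, 1142 and 991 FPKM at H-25 (log2FC -2.79, adjusted p = 1.76e-06), and of 18 actin, profilin and depolymerizing factor genes 3 were lower and 1, an actin-depolymerizing factor (LOC109828124, 2.08), was higher (16.7% and 5.56%). There were 3 higher without H-25 replicate 2 and 2 without H-40 replicate 1.

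Of the lists with at least 10 tested members, that of the cytosolic ribosomal proteins had the largest share of lower genes, 196 of 214 tested (91.6%, 271 in the table), with a median of -2.23. The summed FPKM was 16930, 17850 and 21260 in the H-40 libraries and 98010, 51610 and 87270 in the H-25 libraries. The large subunit's L38 (LOC109823929) had 32.9, 13.3 and 54.02 FPKM at H-40 and 829, 223 and 771 FPKM at H-25 (log2FC -4.13, adjusted p = 8.43e-05). The small subunit's S19-like (LOC109834433) had 11.99, 8.67 and 12.2 FPKM at H-40 and 236, 84.1 and 229.7 FPKM at H-25 (log2FC -3.82, adjusted p = 4.28e-05). The 4 higher members all carried the description 60S ribosomal protein L18a-like protein (LOC109822617, LOC109829239, LOC109840793 and LOC109845165), with log2FC values of 1.62, 1.89, 1.25 and 1.29. In H-25 replicate 2 the ribosomal protein sum lay between the other H-25 libraries and H-40. Factors that assemble ribosomes fell in 19 of 76 tested members (25.0%, against 12.2% of all tested genes), with none higher and a median of -0.7. Without H-25 replicate 2 there were 31 lower and 1 higher, without H-25 replicate 3 there was 1 higher, and without H-40 replicate 2 there were 2. Early nodulin-93-like genes, a small family of membrane proteins, were all 3 lower. The most abundant (LOC109820675) had 125, 43.3 and 77.1 FPKM at H-40 and 1604, 574 and 1351 FPKM at H-25 (log2FC -3.83, adjusted p = 0.0115). The other members, LOC109844968 and LOC109845576, had log2FC values of -3.74 and -1.19.

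**Figure D3:**
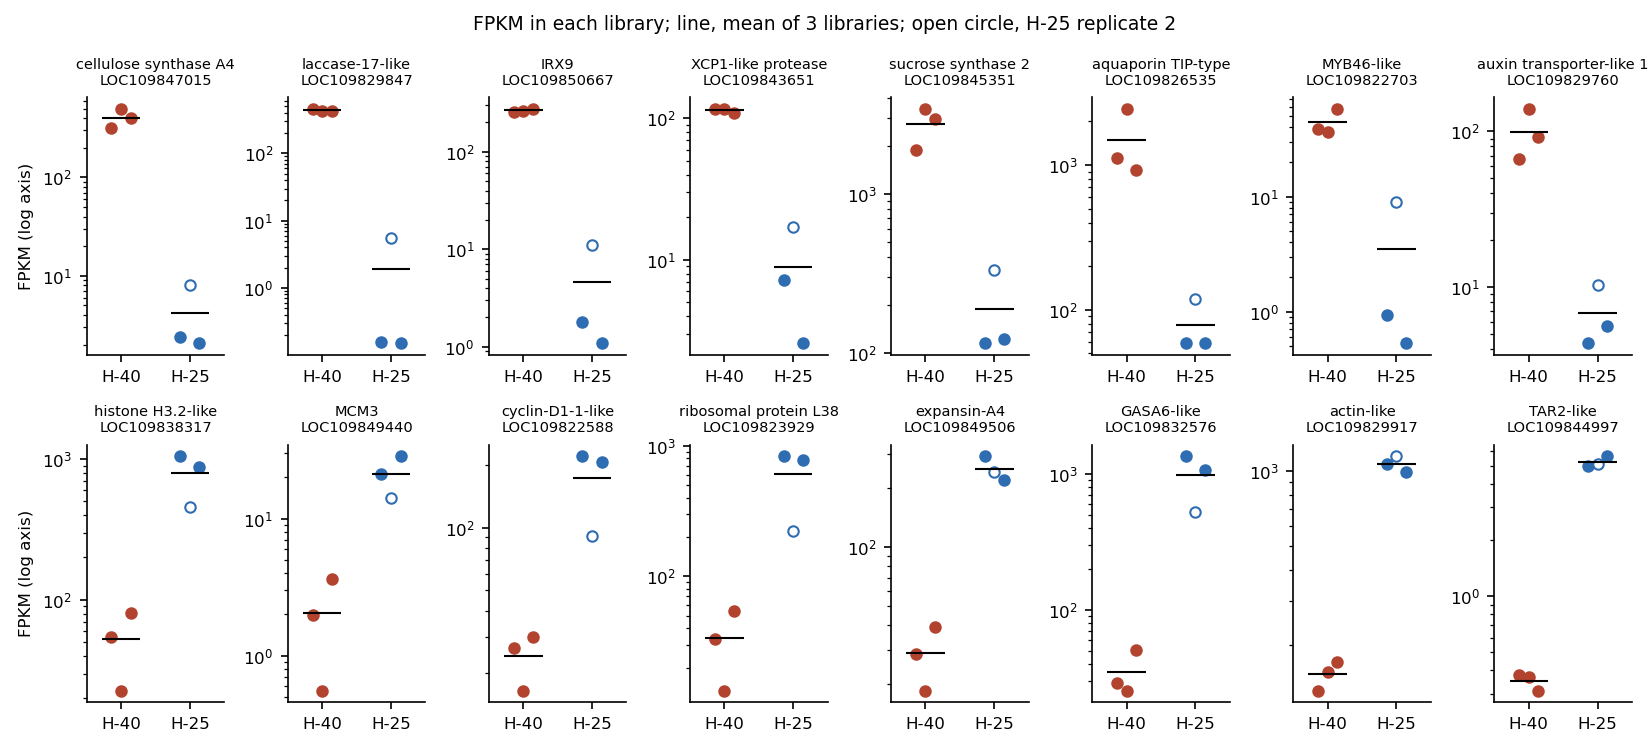
FPKM (log axis, scaled per gene) of 16 genes in each of the 3 H-40 libraries (red, left) and the 3 H-25 libraries (blue, right), with a line at the group mean and an open circle for H-25 replicate 2. The upper row shows 8 genes higher at H-40 and the lower row 8 genes lower at H-40, and in each gene the libraries of both stages do not overlap, as in 47.7% of all tested genes.

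The wall-loosening families had members lower and members higher at H-40. Expansins had 8 lower and 2 higher of 15 tested (53.3% and 13.3%, against 12.2% and 11.9% of all tested genes), with 27 in the table and a median of -1.29. The share of higher expansins was thus close to that over all genes. The summed FPKM of the list was 545, 459.8 and 820.3 in the H-40 libraries and 1385, 1655 and 1083 in the H-25 libraries. Expansin-A10-like (LOC109832545) had 21.3, 6.59 and 41.3 FPKM at H-40 and 207, 259 and 208 FPKM at H-25 (log2FC -3.54, adjusted p = 0.000342). Expansin-A4 (LOC109849506) had 28.4, 18.6 and 39.4 FPKM at H-40 and 292, 243 and 222 FPKM at H-25 (log2FC -3.14, adjusted p = 2.49e-05). Expansin-B17-like (LOC109826004) was listed at 0 in all 3 H-40 libraries and had 7.38, 1.81 and 8.25 FPKM at H-25 (adjusted p = 0.000247). The most abundant member, expansin-A2-like (LOC109840564), had 208, 116 and 422 FPKM at H-40 and 558, 738 and 396 FPKM at H-25, with overlapping groups, and was not called (log2FC -1.33, adjusted p = 0.0537). It was called with the stricter filter of a mean of at least 5 FPKM (adjusted p = 0.0491), in a voom fit of the recovered fragments (adjusted p = 0.0419), and without H-40 replicate 3 (adjusted p = 0.0172), H-60 replicate 2 (adjusted p = 0.0376) or H-60 replicate 3 (adjusted p = 0.0267). The 2 higher members were a second expansin-A10-like gene (LOC109833865), with 64.2, 93.9 and 87.2 FPKM at H-40 and 5.71, 26.2 and 4.45 FPKM at H-25 (log2FC 3.03, adjusted p = 0.00053), and expansin-like B1 (LOC109839323), with 84.5, 121 and 79.9 FPKM at H-40 and 18.1, 39.9 and 7.63 FPKM at H-25 (log2FC 2.32, adjusted p = 0.00214). With a pseudocount of 0.1 or 0.5, with TPM and in a voom fit of the recovered fragments, 4 expansins were higher.

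XTH genes moved mainly the other way, with 11 higher and 2 lower of 23 tested (47.8% and 8.7%, against 11.9% and 12.2% of all tested genes) and a median of 0.67. Their summed FPKM was 5103, 7307 and 6031 in the H-40 libraries and 1748, 4276 and 1375 in the H-25 libraries. XTH32 (LOC109837205) had 636, 820.2 and 465 FPKM at H-40 and 15.3, 90.6 and 10.9 FPKM at H-25 (log2FC 4.58, adjusted p = 0.000247). The 2 lower members were described as XTH23, as was the strongly rising LOC109841353. They lie next to each other in numbering (LOC109840405 and LOC109840406) and had log2FC values of -2.08 and -1.08. The call of LOC109840406 was lost with TPM and without replicate 1 or 2 of H-25 or replicate 3 of H-40. Endo-1,4-beta-glucanases had 4 higher and 5 lower of 10 tested. Endoglucanase 10-like (LOC109851506) had 753, 971 and 922 FPKM at H-40 and 118, 246 and 119.6 FPKM at H-25 (log2FC 2.52, adjusted p = 5.15e-05), whereas endoglucanase 17-like (LOC109848303) had 1.48, 1.47 and 5.46 FPKM at H-40 and 47.3, 45.8 and 66.1 FPKM at H-25 (log2FC -3.97, adjusted p = 7.17e-06) and endoglucanase 6-like (LOC109828869) had 56.9, 36.4 and 80.97 FPKM at H-40 and 293, 421 and 279.8 FPKM at H-25 (log2FC -2.54, adjusted p = 0.000956).

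The GASA peptides, of which 4 were higher and 5 lower of 11 tested (36.4% and 45.5%, against 11.9% and 12.2% of all tested genes), were lower in sum, with 519, 444 and 696 in the H-40 libraries and 5517, 3517 and 4874 in the H-25 libraries. In the H-25 libraries most of the sum was in GASA6-like LOC109822577, which had 286, 153 and 435 FPKM at H-40 and 3200, 2379 and 2985 FPKM at H-25 (log2FC -3.4, adjusted p = 4.20e-05). The widest fall was of another GASA6-like gene (LOC109831558), with 0.110, 0.362 and 1.23 FPKM at H-40 and 87.5, 14.9 and 84.5 FPKM at H-25 (log2FC -5.04, adjusted p = 3.63e-05). GASA12-like (LOC109830668) had 18.9, 15.6 and 11.7 FPKM at H-40 and 113, 87.7 and 90.1 FPKM at H-25 (log2FC -2.6, adjusted p = 0.0016). GASA11-like (LOC109840940), the member with the widest rise, had 24.5, 48.7 and 23.9 FPKM at H-40 and 2.18, 7.05 and 1.19 FPKM at H-25 (log2FC 3.04, adjusted p = 0.000273), still a small part of the sum.

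Pectin genes had members in both directions. Polygalacturonases and pectate lyases had 5 higher and 5 lower of 27 tested (18.5% each, not far above the shares over all genes). The polygalacturonase LOC109833601 had 188, 241 and 178 FPKM at H-40 and 0.780, 4.69 and 0.443 FPKM at H-25 (log2FC 6.37, adjusted p = 2.99e-06). At1g48100-like (LOC109843348) had 12.4, 4.06 and 39.4 FPKM at H-40 and 275, 242 and 243 FPKM at H-25 (log2FC -4.18, adjusted p = 0.000166). Galacturonosyltransferase 12 (LOC109833298), which in Arabidopsis is needed for xylan in secondary walls, had 116, 195 and 142 FPKM at H-40 and 1.19, 4.43 and 0.656 FPKM at H-25 (log2FC 5.79, adjusted p = 1.76e-06), and of 20 galacturonosyltransferases 4 were higher and none lower. Pectin methylesterases and their inhibitors had 4 higher and 2 lower of 16 tested (25.0% and 12.5%, against 11.9% and 12.2% of all tested genes). Without H-25 replicate 1 or 3 these were 2 and 0, without H-40 replicate 2 they were 2 and 1, and without H-40 replicate 3 there were 2 higher. The largest change in that list was of a pectinesterase-like gene (LOC109823040), with 40.9, 114 and 80.6 FPKM at H-40 and 3.56, 16.1 and 1.46 FPKM at H-25 (log2FC 3.67, adjusted p = 0.000399).

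Water channels had 7 higher and 1 lower of 25 tested aquaporins (28% and 4%), with a median of -0.05. Without replicate 3 of H-25 or replicate 2 of H-40, 4 were higher. Between 0 and 2 were lower over the single libraries left out (0 without replicate 2 of H-25 or replicate 2 of H-40, and 2 without replicate 1 or 3 of H-10, replicate 3 of H-25 or replicate 1 of H-40). A tonoplast aquaporin of the TIP type (LOC109826535) had 1125, 2434 and 929 FPKM at H-40 and 58.4, 119 and 58.8 FPKM at H-25 (log2FC 4.18, adjusted p = 1.22e-05). The plasma membrane aquaporin PIP2-2 (LOC109836277) had 1782, 3203 and 1383 FPKM at H-40 and 262, 652 and 205 FPKM at H-25 (log2FC 2.6, adjusted p = 0.00082). PIP1-2 (LOC109848099) had 2326, 3591 and 2647 FPKM at H-40 and 892, 2066 and 853 FPKM at H-25 (log2FC 1.27, adjusted p = 0.0118) and lost its call in the fit on the 6 libraries alone (adjusted p = 0.0525) and without replicate 1 or 3 of H-25 or replicate 2 of H-40. TIP2-1 (LOC109822726), the most abundant aquaporin, had 2209, 2222 and 2452 FPKM at H-40 and 3892, 6579 and 3376 FPKM at H-25 and was not called (-0.95). It was called lower in the voom fit (-1.01, adjusted p = 0.00783) and without H-25 replicate 3 (-1.14, adjusted p = 0.0257). The 1 lower member was PIP2-3-like (LOC109848384), with 152, 112 and 238 FPKM at H-40 and 308, 474 and 311 FPKM at H-25 (log2FC -1.16, adjusted p = 0.0109), and its call was lost with quantile normalization and without replicate 2 of H-25 or replicate 2 of H-40. Among 39 vacuolar proton pump genes 3 were higher and 2 lower (7.69% and 5.13%), and 1 lower without replicate 1 or 2 of H-25 or replicate 2 of H-40. The proton-pumping pyrophosphatase LOC109841169, which acidifies the vacuole, had 678, 886 and 740.5 FPKM at H-40 and 144, 342 and 181 FPKM at H-25 (log2FC 1.87, adjusted p = 0.00066). Of 7 plasma membrane proton pumps, which acidify the wall, LOC109841344 (1.57, with overlapping groups) and LOC109834058 (1.07) were higher and none was lower. There were 2 lower without H-25 replicate 2 and 1 without replicate 1 or 3 of H-10 or replicate 1 of H-40.

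**Figure D4:**
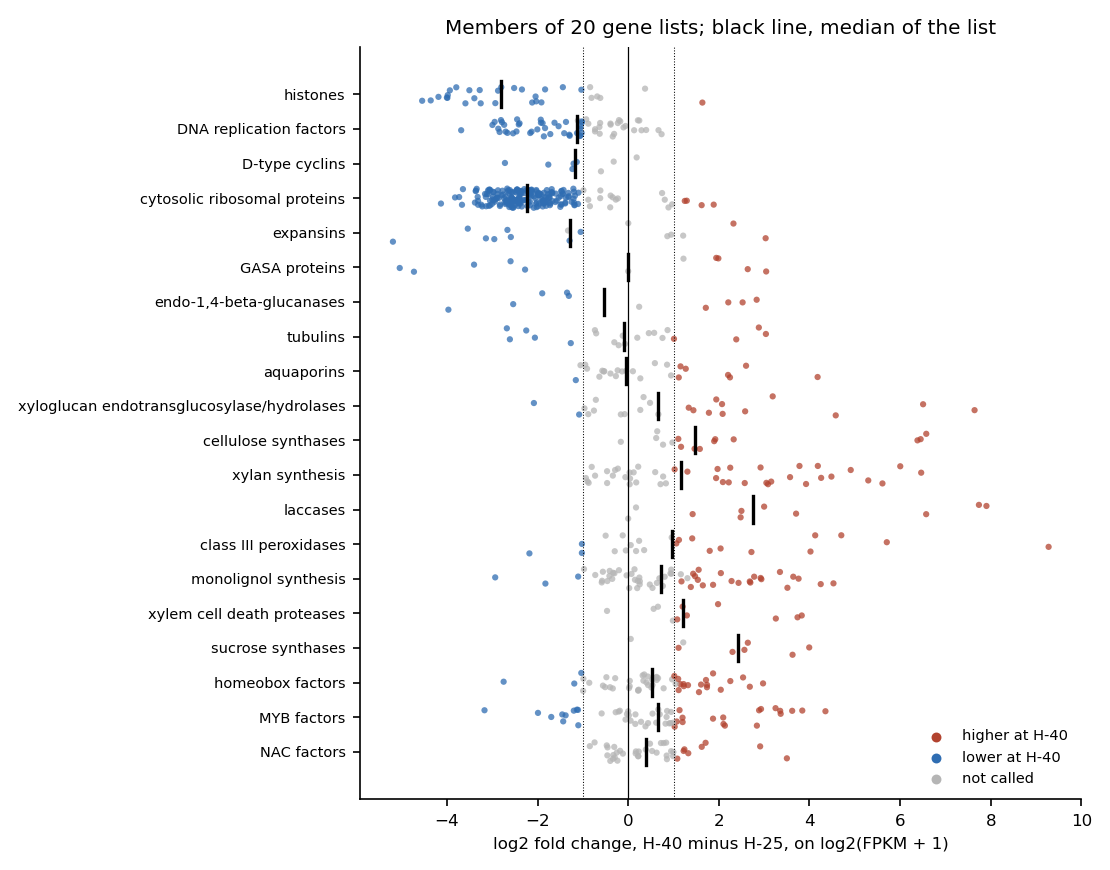
Log2 fold change on log2(FPKM + 1), H-40 minus H-25, of every tested member of 20 gene lists (red higher, blue lower, grey not called), with a black line at the median of each list and dotted lines at 1 and -1. Members of the cytosolic ribosomal protein list lie mostly between -1 and -4, the median of the laccases is 2.75, and expansins, GASA proteins, endo-1,4-beta-glucanases and tubulins have members on both sides.

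In the lists of cellulose, xylan, monolignol, laccase and peroxidase genes, 37.9% (monolignol synthesis) to 80.0% (laccases) of the tested members were higher at H-40. Of 15 tested cellulose synthases 10 were higher and none lower (66.7%, against 11.9% of all tested genes), with a median of 1.46 and a summed FPKM of 2690, 3748 and 3596 in the H-40 libraries and 603, 1531 and 662 in the H-25 libraries. The 7 other higher members rose less, from cellulose synthase A6 (LOC109841011, 1.11, not called in the fit on the 6 libraries alone or without replicate 1 or 3 of H-25 or replicate 2 of H-40) to an A8 gene (LOC109834437, 2.33), and the most abundant of them, A1 (LOC109845371), had 434, 564 and 687 FPKM at H-40 and 96.4, 386 and 166 FPKM at H-25 (log2FC 1.58, adjusted p = 0.00638). The related cellulose synthase-like proteins had 3 lower (37.5%) and none higher of 8 (1 higher without H-25 replicate 2). The COBRA-like proteins, which act in cellulose deposition, had 2 higher (33.3%) and none lower of 6. Xylan synthesis genes had 23 higher and none lower of 44 tested (52.3%), with 2 lower without replicate 2 of H-25 or replicate 3 of H-40 and 1 without H-40 replicate 2, with a median of 1.17, and their summed FPKM was 4513, 4489 and 4642 in the H-40 libraries and 814, 1328 and 754 in the H-25 libraries. IRX9 (LOC109850667), a glycosyltransferase that in Arabidopsis extends the xylan backbone, had 258, 263 and 273 FPKM at H-40 and 1.81, 11.1 and 1.08 FPKM at H-25 (log2FC 6.0, adjusted p = 1.43e-05). UDP-glucuronic acid decarboxylase 6 (LOC109819987), which supplies UDP-xylose, had 986, 697 and 820.3 FPKM at H-40 and 73.8, 175 and 59.6 FPKM at H-25 (log2FC 3.16, adjusted p = 0.000224). The trichome birefringence-like genes TBL19 (LOC109841032) and TBL37 (LOC109828826), of a family that acetylates wall polysaccharides, had log2FC values of 6.47 and 5.61.

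The steps from phenylalanine to monolignols had 22 higher and 3 lower of 58 tested (37.9% and 5.17%), with a median of 0.73 and a summed FPKM of 2398, 3133 and 2476 in the H-40 libraries and 668, 832 and 596 in the H-25 libraries. Phenylalanine ammonia-lyase-like (LOC109826061), the entry step, had 218, 479.5 and 317 FPKM at H-40 and 18.1, 44.2 and 14.5 FPKM at H-25 (log2FC 3.76, adjusted p = 2.38e-05). Cinnamate 4-hydroxylase (LOC109846559) had 506, 612 and 523 FPKM at H-40 and 34.8, 86.7 and 33.8 FPKM at H-25 (log2FC 3.51, adjusted p = 2.91e-05). 4-coumarate-CoA ligase 1 (LOC109840460) had 259.5, 455 and 238 FPKM at H-40 and 14.9, 24.2 and 9.36 FPKM at H-25 (log2FC 4.25, adjusted p = 4.52e-06). All H-40 libraries exceeded all H-25 libraries several-fold in these 3 steps. Caffeoyl-CoA O-methyltransferase (LOC109835762) had 146, 119.6 and 139.9 FPKM at H-40 and 4.22, 7.65 and 3.5 FPKM at H-25 (log2FC 4.53, adjusted p = 7.64e-06). Cinnamyl alcohol dehydrogenase (LOC109841100), the last step, had 476, 675 and 487 FPKM at H-40 and 35.1, 87.6 and 24.3 FPKM at H-25 (log2FC 3.64, adjusted p = 2.02e-05). The 3 lower members were CAD 6 (LOC109849900, -2.94), putrescine hydroxycinnamoyltransferase 1-like (LOC109843666, -1.83), which conjugates a polyamine, and cinnamoyl-CoA reductase 2-like (LOC109846170, -1.1), the last not called without H-25 replicate 1 or 3.

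Laccases had 8 higher and none lower of 10 tested (80.0%), with a median of 2.75, and a summed FPKM of 1411, 1348 and 1383 in the H-40 libraries and 7.56, 31.2 and 4.87 in the H-25 libraries. Laccase-3-like (LOC109819580) had 271, 216 and 294 FPKM at H-40 and 1.36, 2.91 and 1.17 FPKM at H-25 (log2FC 6.58, adjusted p = 6.85e-07), and with laccase-4-like and laccase-17-like it made up most of the sum. Class III peroxidases had 11 higher and 3 lower of 23 tested (47.8% and 13.0%), with a median of 0.96. Cationic peroxidase 1-like (LOC109850587) had 49.02, 73.5 and 48.2 FPKM at H-40 and 0.212, 0.0605 and 0 FPKM at H-25 (log2FC 5.71, adjusted p = 8.94e-08). Peroxidase 47-like (LOC109839193) had 61.5, 134 and 84.3 FPKM at H-40 and 0.921, 15.9 and 0.260 FPKM at H-25 (log2FC 4.7, adjusted p = 0.000571). The 3 lower were peroxidase 72-like (LOC109847703, -2.18), peroxidase 12-like (LOC109830347, -1.02) and peroxidase 50-like (LOC109821069, -1.02), the last 2 near the threshold and not called with TPM or quantile normalization. Without H-40 replicate 2 there was 1 lower peroxidase.

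Proteases and nucleases of xylem cell death, by which vessels empty themselves, had 7 higher and none lower of 11 tested (63.6%), with a median of 1.2. Xylem cysteine protease XCP1-like (LOC109843651) had 116, 116 and 109 FPKM at H-40 and 7.21, 16.9 and 2.56 FPKM at H-25 (log2FC 3.83, adjusted p = 4.08e-05). Metacaspase-9 (LOC109822451) had 53.8, 83.1 and 73.9 FPKM at H-40 and 4.56, 11.03 and 1.18 FPKM at H-25 (log2FC 3.74, adjusted p = 7.93e-05). Fasciclin-like arabinogalactan proteins had 4 higher and 3 lower of 8 tested. FLA9 (LOC109835209) had 850.1, 1055 and 1107 FPKM at H-40 and 120.5, 630.0 and 91.3 FPKM at H-25 (log2FC 2.38, adjusted p = 0.0045), whereas FLA1 (LOC109840216) had 14.3, 12.4 and 11.5 FPKM at H-40 and 84.95, 50.6 and 71.02 FPKM at H-25 (log2FC -2.32, adjusted p = 0.000101).

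**Figure D5:**
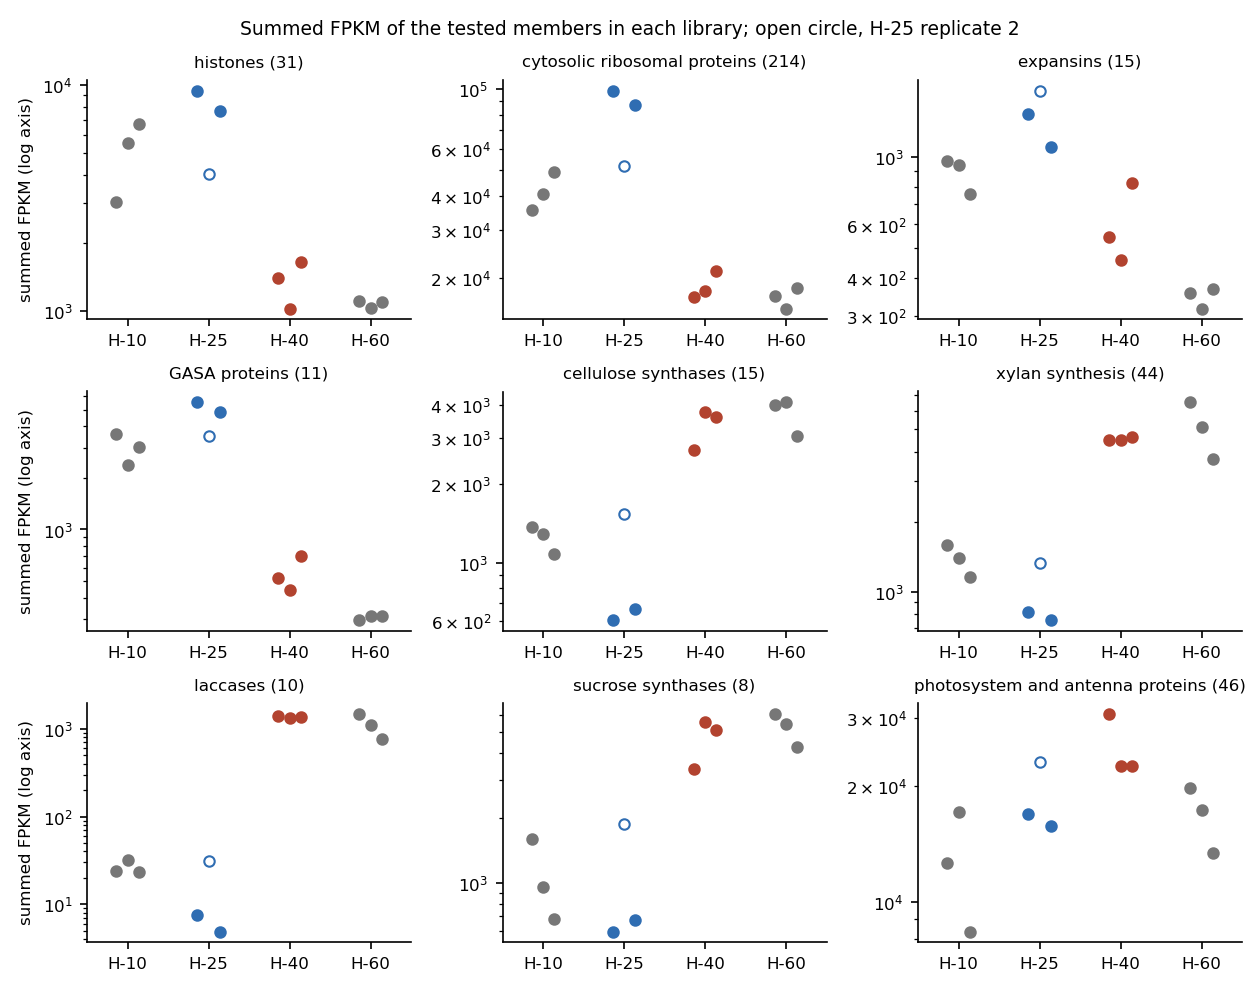
Summed FPKM (log axis) of the tested members of 9 gene lists in each library of the 4 stages, in order of height, with H-25 in blue, H-40 in red, the 2 other stages in grey and an open circle for H-25 replicate 2. Histones and ribosomal proteins are high at H-10 and H-25 and low at H-40 and H-60, and cellulose synthases, xylan synthesis genes, laccases and sucrose synthases run the other way.

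Sums over all 4 heights show where the comparison lies in the series. The summed FPKM of histones was 3059, 5558 and 6738 at H-10, 9426, 4053 and 7715 at H-25, 1410, 1030 and 1655 at H-40 and 1117, 1037 and 1105 at H-60. That of laccases was 23.6, 32.3 and 23.2 at H-10, 7.56, 31.2 and 4.87 at H-25, 1411, 1348 and 1383 at H-40 and 1484, 1119 and 757 at H-60. For both lists every H-40 library lay nearer to the H-60 libraries than to those of H-25. The H-10 segment was cut at another height above the soil than the segments of H-25, H-40 and H-60. A fixed height need not hold the same tissue either, since the study reports that this stretch lengthened after marking. By subtraction, the segments lay 4 to 7 cm below the tip at H-10, 5 to 8 cm at H-25, 20 to 23 cm at H-40 and 40 to 43 cm at H-60. The levels therefore cannot be read as those of the same tissue at successive dates. Without H-25 replicate 2 there were 26 histone genes, 39 replication genes and 199 ribosomal protein genes lower and 12 cellulose synthases, 24 xylan genes, 24 monolignol genes, 8 laccases and 7 sucrose synthases higher.

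Among the transcription factor lists, those of homeobox and MYB factors had the largest shares of higher members (34.6% and 34.0%, against 11.9% of all tested genes). More members were higher than lower also in the NAC, WRKY, bHLH and bZIP lists. MYB factors had 18 higher and 10 lower of 53 tested (34.0% and 18.9%), with 6 lower without H-40 replicate 2. MYB46-like (LOC109822703), whose Arabidopsis counterpart switches on secondary wall synthesis, had 38.5, 36.6 and 57.5 FPKM at H-40 and 0.932, 8.98 and 0.529 FPKM at H-25 (log2FC 3.84, adjusted p = 0.000411). MYB26-like (LOC109835796), whose Arabidopsis counterpart acts in anther wall thickening, had 23.7, 23.03 and 13.3 FPKM at H-40 and was listed at 0 in all 3 H-25 libraries (adjusted p = 4.79e-07). The MYB-related gene Hv33-like (LOC109840692) had 209, 143 and 169 FPKM at H-40 and 13.7, 25.6 and 10.98 FPKM at H-25 (log2FC 3.37, adjusted p = 2.07e-05).

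NAC factors had 8 higher (20.5%, against 11.9% of all tested genes) and none lower of 39 tested (1 lower without H-25 replicate 3). The higher ones were 13 without H-25 replicate 2 and 5 without replicate 3 of H-25 or replicate 2 of H-40. NAC43-like (LOC109849149), named after the Arabidopsis fibre wall regulator NST1, had 35.8, 27.6 and 70.2 FPKM at H-40 and 2.96, 7.92 and 3.96 FPKM at H-25 (log2FC 2.91, adjusted p = 0.000152). NAC73-like (LOC109840772) had 17.4, 24.4 and 19.03 FPKM at H-40 and 0.878, 1.67 and 0.281 FPKM at H-25 (log2FC 3.5, adjusted p = 7.38e-06). Homeobox factors had 18 higher and 3 lower of 52 tested (34.6% and 5.77%). BEL1-like homeodomain protein 7-like (LOC109844411) had 84.8, 117 and 131 FPKM at H-40 and 10.04, 35.5 and 11.5 FPKM at H-25 (log2FC 2.68, adjusted p = 0.000161). HOX32-like (LOC109846343), of the class III homeodomain-leucine zipper factors that pattern vascular tissue, had 169.6, 178 and 171 FPKM at H-40 and 44.3, 55.2 and 40.98 FPKM at H-25 (log2FC 1.87, adjusted p = 0.000106). The 3 lower were ATHB-13-like (LOC109830102), with 7.26, 6.58 and 8.77 FPKM at H-40 and 84.3, 30.3 and 68.6 FPKM at H-25 (log2FC -2.75, adjusted p = 0.000272), HOX4-like (LOC109832835, -1.03) and the knotted-1-like LET6 (LOC109841056, -1.19), of a family active in meristems. The call of HOX4-like was lost with TPM or quantile normalization and without replicate 1 or 3 of H-25 or replicate 2 of H-40 and that of LET6 without H-40 replicate 1.

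Growth-regulating and TCP factors, which act in young dividing organs, had 4 lower (28.6%) and none higher of 14 tested, 7 lower and 1 higher without H-25 replicate 2, and 1 higher without H-40 replicate 3. The 4 were GRF3-like (LOC109825335, not called without replicate 1 or 3 of H-25 or replicate 2 of H-40), GRF6-like (LOC109834278) and the co-activators GIF1-like LOC109836807 and LOC109844427. LOC109836807 had 0.536, 0.977 and 0.552 FPKM at H-40 and 13.7, 1.29 and 15.03 FPKM at H-25 (log2FC -2.28, adjusted p = 0.00991), where the value of H-25 replicate 2 lay just above the H-40 libraries, and its call was lost in a voom fit of the recovered fragments. B3 and LBD factors had 8 lower and 2 higher of 29 tested (27.6% and 6.9%), with 5 lower without H-40 replicate 2 and 4 higher without replicate 2 of H-25 or replicate 1 of H-40. The bZIP list had 5 higher and 4 lower of 34 (14.7% and 11.8%, close to the shares over all genes). Its widest change was a fall of basic leucine zipper 61-like (LOC109828816), with 0.264, 0.173 and 0.130 FPKM at H-40 and 35.2, 22.5 and 29.8 FPKM at H-25 (log2FC -4.64, adjusted p = 6.34e-07). The bZIP11-like gene LOC109840681 was at 122, 232 and 144 FPKM at H-40 and 11.9, 29.1 and 11.5 FPKM at H-25 (log2FC 3.25, adjusted p = 2.32e-05), of a family that in Arabidopsis is translated less when sucrose is high. In the AP2/ERF list 3 were higher and 7 lower of 31 (9.68% and 22.6%), and in the bHLH list 10 and 7 of 60 (16.7% and 11.7%). The WRKY list had 6 higher and 1 lower of 38 (15.8% and 2.63%), with 2 lower without replicate 2 or 3 of H-25 or replicate 1 of H-40. For GATA, C3H and DOF factors these were 4 and 8 of 74 (5.41% and 10.8%), with 7 higher without H-25 replicate 2. The shares over all tested genes were 11.9% and 12.2%.

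The shares of higher and lower genes in the lists of auxin transport (11.1% and 16.7%), auxin synthesis and turnover (13.3% each) and auxin response factors (12.5% each) were close to those over all tested genes (11.9% and 12.2%). Those of the Aux/IAA repressors (4.76% and 9.52%) were below them. Auxin transporters had 2 higher and 3 lower of 18 tested. Auxin transporter-like protein 1 (LOC109829760), an influx carrier, had 66.6, 139 and 92.7 FPKM at H-40 and 4.35, 10.4 and 5.62 FPKM at H-25 (log2FC 3.7, adjusted p = 4.80e-06), whereas auxin transporter-like protein 2 (LOC109836865) had 0.241, 0.452 and 0.128 FPKM at H-40 and 7.57, 1.72 and 11.6 FPKM at H-25 (log2FC -2.39, adjusted p = 0.00131). Auxin synthesis and turnover had 2 higher and 2 lower of 15, with 1 higher without replicate 2 of H-25 or replicate 1 of H-40. The GH3.1 conjugating enzyme gene (LOC109835146) had 7.77, 10.7 and 8.54 FPKM at H-40 and 0.340, 1.89 and 0.290 FPKM at H-25 (log2FC 2.54, adjusted p = 0.000121), and the dioxygenase DAO-like gene (LOC109839952), of a family that oxidises auxin, had 0.824, 0.675 and 0.661 FPKM at H-40 and 7.89, 4.56 and 5.54 FPKM at H-25 (log2FC -2.0, adjusted p = 5.53e-05). Auxin response factors had 2 higher and 2 lower of 16. ARF19-like (LOC109840137) had 183, 242 and 276 FPKM at H-40 and 42.3, 109 and 44.8 FPKM at H-25 (log2FC 1.94, adjusted p = 0.000382). ARF12-like (LOC109827783) had 11.4, 10.1 and 12.4 FPKM at H-40 and 64.3, 26.6 and 78.03 FPKM at H-25 (log2FC -2.09, adjusted p = 0.000505). SAUR genes had 6 higher and 4 lower of 20 (30.0% and 20.0%), with 3 higher without replicate 1 of H-25 or replicate 1 or 3 of H-40. Aux/IAA repressors had 1 higher (2 without H-25 replicate 2) and 2 lower of 21.

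The study also assayed hormone genes by RT-qPCR. Primers of some of them are shown, since they mark the ends of the stretch by which each transcript was assayed. Other assayed genes, PAI1, DAO and AUX1 among them, are left out. The genes shown are TAR2, an enzyme of auxin synthesis, PIF4, a light- and temperature-regulated transcription factor, SnRK2, a kinase of abscisic acid signalling, GA2ox, which inactivates gibberellin, and the RT-qPCR standard UBCE, a ubiquitin-conjugating enzyme. All are written 5′ to 3′ in lower case.
TAR2 forward: aacttggtcggcaatgctgtc
TAR2 reverse: gaggtagtcggtcactgctgaa
PIF4 forward: gtgcccatctccgtccttgaa
PIF4 reverse: caaccgctgctgtctgattctg
SnRK2 forward: tctgcatggctggtcgattca
SnRK2 reverse: cgctatgtaggctggagttcct
GA2ox forward: gacatcggctggctggagtat
GA2ox reverse: accgtgacctgaggaacaagg
UBCE forward: tgctgtggaacgccgtgat
UBCE reverse: aatctgactgtcggtggcttgt

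In these libraries TAR2 (LOC109844997, chr6:11137994-11142826, plus strand) had 0.378, 0.367 and 0.311 FPKM at H-40 and 5.02, 5.11 and 5.64 FPKM at H-25 (log2FC -2.21 ± 0.28 (SE), adjusted p = 9.51e-05). Both groups were tight and far apart, and H-25 replicate 2 was level with the rest of its group. PIF4, described as PIF4-like (LOC109833058, chr3:13077411-13088670, minus strand), had 1.73, 1.21 and 2.54 FPKM at H-40 and 8.58, 8.31 and 7.79 FPKM at H-25 (log2FC -1.73 ± 0.25 (SE), adjusted p = 0.000242). SnRK2, described as SAPK3-like (LOC109820020, chr8:6510057-6513807, plus strand), had 22.7, 22.6 and 28.9 FPKM at H-40 and 116, 91.3 and 113 FPKM at H-25 (log2FC -2.07 ± 0.17 (SE), adjusted p = 7.64e-06). GA2ox, described as gibberellin 2-beta-dioxygenase 1-like (LOC109823202, chr1:40495642-40498512, minus strand), had 13.2, 12.03 and 11.5 FPKM at H-40 and 5.09, 5.53 and 2.47 FPKM at H-25 (log2FC 1.36 ± 0.37 (SE), adjusted p = 0.0128), with an adjusted p of 0.0603 without H-25 replicate 3. The standard UBCE (LOC109832941, chr3:10459232-10470837, minus strand) had 219.6, 220.3 and 208 FPKM at H-40 and 211, 226 and 193 FPKM at H-25 (log2FC 0.04 ± 0.13 (SE), adjusted p = 0.824), with overlapping groups.

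Gibberellin synthesis and turnover had 5 higher (31.2%, against 11.9% of all tested genes) and none lower of 16 tested, and 3 higher without H-25 replicate 3. Beside GA2ox these were 2 GA2ox8-like genes (LOC109827520, 1.78, and LOC109842967, 1.05), ent-copalyl diphosphate synthase 1 (LOC109832398, 1.62) and ent-kaurene synthase (LOC109851541, 1.01), the enzymes of the first committed steps of synthesis. The call of LOC109842967 was lost without replicate 3 of H-25 or replicate 3 of H-40 and that of LOC109851541 with quantile normalization and without replicate 1 of H-25 or replicate 2 of H-40. Genes of synthesis and of inactivation were thus both among the higher ones. The DELLA repressor SLR1-like (LOC109834899) had 28.4, 44.5 and 34.4 FPKM at H-40 and 18.3, 16.2 and 17.3 FPKM at H-25 (log2FC 0.99, adjusted p = 0.00336), just under the fold threshold, which it passed with a pseudocount of 0.1 or 0.5, with TPM, and without replicate 1 of H-25 or replicate 1 or 3 of H-40, and the receptor gene GID1C (LOC109849239) had a log2FC of 0.75.

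In the abscisic acid lists, the 8'-hydroxylase genes LOC109843769 (1.62) and LOC109837794 (1.64), which break the hormone down, were higher of 5 synthesis and turnover genes tested, the second not without H-25 replicate 1 or 3. A second SnRK2-type kinase, SAPK1-like (LOC109825645), had 11.9, 6.26 and 15.6 FPKM at H-40 and 84.2, 25.8 and 71.1 FPKM at H-25 (log2FC -2.24, adjusted p = 0.00183). In the signalling list 3 were lower and 1 higher of 18 (16.7% and 5.56%). Cytokinin genes had 7 higher and 3 lower of 36 (19.4% and 8.33%), with 4 higher without H-40 replicate 2. Over the single libraries left out, 0 to 5 were lower. There were 0 without H-25 replicate 1, 1 without H-40 replicate 2 or 3, and 5 without H-25 replicate 2. The pseudo histidine-containing phosphotransfer protein gene LOC109840590 had 25.8, 14.8 and 19.1 FPKM at H-40 and 0.683, 0.486 and 0.164 FPKM at H-25 (log2FC 3.84, adjusted p = 2.82e-06). Brassinosteroid genes had 4 higher and 2 lower of 17 (23.5% and 11.8%), with 7 higher without H-25 replicate 2. CYP85A-like (LOC109822473), of the enzymes that finish the hormone, had 1.94, 0.722 and 2.78 FPKM at H-40 and 17.4, 28.4 and 19.4 FPKM at H-25 (log2FC -3.06, adjusted p = 1.85e-05). CYP724B1-like (LOC109840188) had 17.4, 11.9 and 13.9 FPKM at H-40 and 1.73, 1.65 and 1.46 FPKM at H-25 (log2FC 2.55, adjusted p = 2.07e-05). Jasmonate genes had 1 higher and 3 lower of 21 (4.76% and 14.3%), and 2 higher and 7 lower without H-25 replicate 2. Allene oxide cyclase-like (LOC109847862) had 25.6, 6.94 and 38.5 FPKM at H-40 and 328, 85.3 and 365 FPKM at H-25 (log2FC -3.43, adjusted p = 0.00365). Ethylene genes had 3 higher and 1 lower of 22 (13.6% and 4.55%). Over all tested genes, 11.9% were higher and 12.2% lower.

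Sucrose synthases had 6 higher and none lower of 8 tested, with a summed FPKM of 3366, 5570 and 5100 in the H-40 libraries and 594, 1877 and 671 in the H-25 libraries. Behind sucrose synthase 2, SUS1-like (LOC109847517) had 12.1, 26.6 and 16.7 FPKM at H-40 and 0.657, 0.0936 and 0.868 FPKM at H-25 (log2FC 3.63, adjusted p = 6.50e-06), while SUS2-like (LOC109820065) had 1228, 1703 and 1830 FPKM at H-40 and 431, 1438 and 493 FPKM at H-25 and was not called (log2FC 1.22, adjusted p = 0.064), and H-25 replicate 2 lay within the H-40 range. It was called without that library (adjusted p = 0.0049), without H-10 replicate 3 (adjusted p = 0.0473) and with TPM (adjusted p = 0.0416). Cell wall invertase (LOC109823677), which splits sucrose outside the cell, had 269, 199 and 246 FPKM at H-40 and 51.1, 122 and 46.7 FPKM at H-25 (log2FC 1.82, adjusted p = 0.00211), and of 11 invertase and inhibitor genes 3 were higher and none lower. Sucrose phosphate synthase and trehalose genes had 8 higher and none lower of 18 (44.4%). Sucrose phosphate synthase 1 (LOC109841155) had 111, 151 and 112 FPKM at H-40 and 19.8, 59.4 and 24.9 FPKM at H-25 (log2FC 1.96, adjusted p = 0.000483).

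Sugar transporters had 9 higher and 3 lower of 30 (30.0% and 10.0%, against 11.9% and 12.2% of all tested genes). Sugar carrier protein C (LOC109833246) had 54.6, 83.95 and 76.3 FPKM at H-40 and 0.437, 8.04 and 0.979 FPKM at H-25 (log2FC 4.6, adjusted p = 7.87e-05). ERD6-like 16 (LOC109822749) had 102, 97.05 and 47.3 FPKM at H-40 and 3.11, 4.19 and 3.35 FPKM at H-25 (log2FC 4.12, adjusted p = 2.91e-05). The 3 lower were SWEET13-like (LOC109837341), with 0.951, 0.208 and 0.764 FPKM at H-40 and 7.35, 15.02 and 5.78 FPKM at H-25 (log2FC -2.59, adjusted p = 0.00292), SUT1-like (LOC109833886, -2.03) and ERD6-like 5 (LOC109848367, -1.7). Starch genes had 4 higher and 3 lower of 30 (13.3% and 10.0%, close to the shares over all genes), with 5 lower without H-25 replicate 2. Beta-amylase LOC109848851 had 177, 116 and 132 FPKM at H-40 and 881, 510.1 and 824 FPKM at H-25 (log2FC -2.36, adjusted p = 0.000229), and both subunits of ADP-glucose pyrophosphorylase, the committed step of starch synthesis, were lower (LOC109848547, -1.21, and LOC109828937, -1.07, not called with TPM or without H-40 replicate 2).

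Nitrogen transport stood beside the sugars. Amino acid, nitrate and peptide transporters had 32 higher and 5 lower of 83 tested (38.6% and 6.02%), with a median of 0.74, and 3 lower without H-40 replicate 2. Amino acid permease 4-like (LOC109836110) had 80.7, 204 and 81.8 FPKM at H-40 and 0.368, 6.63 and 0.471 FPKM at H-25 (log2FC 5.49, adjusted p = 2.77e-05). Of 7 asparagine and glutamine synthetase genes 0 were called by limma, also in the voom fit of recovered fragments, although 3 had an unadjusted p of at most 0.05, and 1 was called without H-25 replicate 2.

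Markers of other cell types were looked at in the same libraries. All the lists were detected at both heights. Phloem genes had 2 higher and 1 lower of 16 (1 higher without replicate 3 of H-25 or replicate 2 of H-40), close to the share over all genes, with PHLOEM PROTEIN 2-LIKE A9-like (LOC109845198) at 88.6, 110.2 and 102 FPKM at H-40 and 23.5, 44.5 and 14.3 FPKM at H-25 (log2FC 1.97, adjusted p = 0.000481). Photosystem and antenna genes had 4 higher and none lower of 46 (8.7% higher, below the 11.9% of all genes). There was 1 lower without replicate 2 of H-10 or replicate 2 of H-25, and there were 2 without H-40 replicate 1. The summed FPKM was 30710, 22560 and 22560 in the H-40 libraries and 16920, 23060 and 15750 in the H-25 libraries, so that H-25 replicate 2 lay within the range of H-40. Genes of very long chain fatty acids and wax had 5 higher and 5 lower of 42, or 11.9% each, against 11.9% and 12.2% of all genes. There were 12 higher once H-25 replicate 2 was left out and 3 without replicate 1 or 3 of H-25. ECERIFERUM 1-like (LOC109825477), which makes wax alkanes, had 52.6, 49.5 and 33.9 FPKM at H-40 and 0.401, 1.51 and 0.505 FPKM at H-25 (log2FC 4.71, adjusted p = 2.56e-06), while a 3-ketoacyl-CoA synthase 19-like gene (LOC109836257) had 0.520, 0.853 and 0.161 FPKM at H-40 and 7.96, 1.66 and 6.13 FPKM at H-25 (log2FC -1.9, adjusted p = 0.00471). Lipid transfer proteins had 2 higher and 6 lower of 19 (10.5% and 31.6%, and 4 higher without H-25 replicate 2), with a summed FPKM of 5502, 5165 and 5195 in the H-40 libraries and 10110, 13210 and 8447 in the H-25 libraries. Flavonoid genes had 9 higher and 6 lower of 25 (36.0% and 24.0%, and 2 lower without replicate 1 or 3 of H-25 or replicate 2 or 3 of H-40), with chalcone isomerase (LOC109850014) at 743, 471 and 506 FPKM at H-40 and 53.01, 81.7 and 37.9 FPKM at H-25 (log2FC 3.33, adjusted p = 0.000148). The widest change of the flavonoid list was of the isoflavone reductase-like gene LOC109845164, with 1781, 1088 and 973 FPKM at H-40 and 3.8, 18.6 and 13.1 FPKM at H-25 (log2FC 6.82, adjusted p = 3.39e-06). Its widest fall was of the flavonol synthase/flavanone 3-hydroxylase-like gene LOC109834252, with 7.49, 8.98 and 37.1 FPKM at H-40 and 270.4, 309 and 265 FPKM at H-25 (log2FC -4.25, adjusted p = 0.000102).

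Heat shock proteins, looked at as a sign of stress at sampling, had 9 higher and 3 lower of 41, with a summed FPKM of 2972, 4456 and 5036 in the H-40 libraries and 4384, 4913 and 4469 in the H-25 libraries, which overlap. The member with the widest fall, the cognate protein HSC70-2-like (LOC109848789), had 48.6, 58.9 and 130.5 FPKM at H-40 and 896, 456 and 899 FPKM at H-25 (log2FC -3.29, adjusted p = 7.20e-05). Of the markers of secondary-walled cells, CESA4, CESA7, IRX9 and XCP1-like were between 1.08 and 16.9 FPKM in the H-25 libraries. Others were lower there. Laccase-4-like and laccase-17-like were below 1 FPKM in H-25 replicates 1 and 3, and CESA9 in H-25 replicate 3. The part of cell type proportions in the results was not tested.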

How the data were processed

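Strand-specific RNA-seq libraries of stem segments were sequenced by the study, 3 per height at 4 heights. HISAT2, featureCounts, StringTie and DESeq2 are the tools listed in the submitters' processing notes. Their options and the genome build were not given in the sources used here. FPKM for 35166 genes in 12 libraries fill the table that the authors deposited, and its 4 columns of group means were not used. Its columns carry stage numbers and were read as the stages in order of height. FPKM times gene length gave whole multiples of 1 step per library (tolerance 0.01) for 100% of the values, from which fragments were recovered.

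RefSeq IDs were given for 32237 genes, whose starts and ends equal those of the RefSeq annotation Aspof.V1, the source of descriptions and coordinates. The filter asked for 1 FPKM or more in 3 or more libraries and left 20352 genes, of which 13445 have a description. In R 4.3.3, limma 3.58.1 was run on log2(FPKM + 1) of all 12 libraries (a mean for each stage, eBayes with its trend option), and H-40 minus H-25 was tested two-sided. This log-scale test replaced the count test of the study because the deposited unit is FPKM. The recovered fragments entered only an alternative fit with limma voom. The fit was tested on simulated data. Tables were made with Python 3.11.15, numpy 2.4.6 and pandas 2.3.3.

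Words in the descriptions defined the gene lists. Members of the comparison, lists and naming rule were chosen with earlier results of these data known. The rule named the 12 widest rises and 12 widest falls (groups not overlapping, the higher one averaging 10 FPKM or more), the 8 most abundant genes of each stage, the 3 widest called changes and the 3 most abundant members of each list, all members of lists of at most 4 genes, and genes listed at 0 at 1 stage with a mean of at least 5 FPKM at the other. Outside the rule and chosen after their values were seen were LOC109821069, LOC109822617, LOC109828937, LOC109829239, LOC109830347, LOC109830668, LOC109830716, LOC109832247, LOC109832835, LOC109832941, LOC109833058, LOC109833865, LOC109834278, LOC109834437, LOC109837341, LOC109839323, LOC109840405, LOC109840406, LOC109840793, LOC109840940, LOC109841011, LOC109841056, LOC109842967, LOC109843666, LOC109845165, LOC109846170, LOC109847703, LOC109848097, LOC109848367, LOC109848384, LOC109849428, LOC109849900 and LOC109851541. Primer sequences come from the study's supplementary table. Replicate numbers are not stated to mark a shared plant or day, so the libraries were not treated as paired. The deviations of same-numbered H-40 and H-25 libraries correlated at 0.331, 0.208 and -0.055 across genes. Deviations from a mean of 3 libraries depend on each other, so these correlations cannot decide whether the libraries are paired. Alternatives varied the pseudocount, filter, scaling, eBayes setting, threshold, samples and model.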

Additional observations from a re-analysis of the deposited data

How the results depend on the processing

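The count of DEGs stayed within 1.5 times of 4897 in every setting but one: without the fold criterion it was 8164 (4061 higher and 4103 lower). Over the single libraries left out, the total ran from 4004 (without H-25 replicate 1) to 6167 (without H-25 replicate 2), the higher DEGs from 2013 to 3020 and the lower from 1991 to 3147. Of the 4897 DEGs, 4731 were called in the same direction without H-25 replicate 2, 4618 in a limma voom fit of the recovered fragments (5469 DEGs), and 3496 with a mean of at least 5 FPKM required (3508 DEGs). A pseudocount of 0.1 gave 5665 DEGs, no filter 4741, quantile normalization 4832, and the 6 libraries of both stages alone 4659. TPM moved the median of all tested genes to 0.1 and gave 5217 DEGs, of which 56.3% were higher, against 49.4%. With the replicate number as a block there were 4984 DEGs (2477 higher and 2507 lower), and 4875 of the 4897 were among them. The numbers are not stated to pair the libraries. H-40 replicates 1 and 2 correlated best with the H-25 replicate of their own number and H-40 replicate 3 with H-25 replicate 2. Such deviations depend on each other, so these correlations cannot decide on pairing. Of 301 called genes that the naming rule or the text names, 265 were called in every setting that tested them, and 0 changed direction. The requirement of a mean of at least 5 FPKM left out 49 of the 301, and 227 were tested and called in every setting run. Most losses came without H-25 replicate 3 (19 genes), H-25 replicate 1 (18) or H-40 replicate 2 (18). The RT-qPCR standard UBCE (LOC109832941), not called, had -0.02 in the voom fit and without H-25 replicate 3, against 0.04. No cause of these shifts was tested. FPKM below that of a few fragments, 0.0601 to 0.0795 for 1 fragment on a gene of 1 kb, cannot show a difference.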
